A study of Homo sapiens with 6 samples.

Results

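Cytosolic RNA sensing was followed here through 10 genes: the sensors DDX58 (RIG-I), IFIH1 (MDA5), DHX58 (LGP2), EIF2AK2 (PKR), ZBP1 and DDX60, the RNA editor gene ADAR, and MAVS, TBK1 and IKBKE, which relay the signal. They were chosen by symbol from the 61517 genes of the deposited table, and all 10 were found, each once, with RIG-I under its older symbol DDX58. The cells were THP-1, an established line of human monocytic leukaemia, and their poly-A RNA was sequenced in 6 libraries. Both groups had been differentiated into macrophages and then given lipopolysaccharide (LPS) and ATP to set off pyroptosis, a lytic inflammatory death. In 3 libraries the cells had also received ruxolitinib, a JAK1 and JAK2 kinase inhibitor that the treatment label spells Lukotinib, and in the other 3, called control here, they had not (treatment label none). How cells were differentiated, and the dose and time of each agent, were not stated in the labels. No library without LPS and ATP was analysed here, and all cells come from 1 line.

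RIG-I and MDA5 are helicases that bind double-stranded RNA in the cytosol, RIG-I mainly short or triphosphate-ended RNA and MDA5 long RNA. Both pass the signal through caspase recruitment domains to MAVS on mitochondria, and the kinases TBK1 and IKK epsilon (IKBKE) then phosphorylate IRF3 and IRF7, which switch on type I interferon. Secreted interferon acts back through JAK1 and TYK2, and a transcription complex that holds STAT2 and IRF9 then binds interferon-stimulated response elements (ISREs) in target genes, several RNA sensors among them. In macrophages this loop can raise sensor levels after a viral or LPS stimulus.

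The libraries held 18796476 to 19253534 counts in the ruxolitinib group and 17757595 to 24533979 in control, with 21126 to 21412 and 21986 to 24798 genes detected. Of 12 macrophage and monocyte markers, 11 were high enough to test, 10 were lower and 1 higher with ruxolitinib, and their summed level was 800 to 905 CPM (read counts scaled to library size) with ruxolitinib and 1450 to 1572 CPM in control. Their part in the results below was not tested, and in bulk RNA fewer cells of a type and less RNA per cell cannot be told apart. CD14 and CD68, which mark monocytes and macrophages, averaged 67.2 and 198 CPM with ruxolitinib and 116 and 424 CPM in control. The T-cell markers CD3D and CD3E had 0 counts in all 6 libraries, as had the erythroid marker HBB. NCAM1, listed here as a natural killer cell marker, was at 201 ± 17.7 CPM with ruxolitinib and 217 ± 2.75 CPM in control (SD, n = 3 each) and made up nearly all of the T and NK list's summed level of 183 to 218 and 215 to 220 CPM. Summed levels of the B cell, erythroid, fibroblast and epithelial lists reached at most 3.79 CPM in any library.

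RefSeq promoter windows, from 250 bases before to 50 bases after an annotated start, were found for 8 of the 10 genes. None was found for DHX58 and ZBP1. Stretches of 5 windows are shown because the letters of the ISRE were searched there. They come from 4 genes that fell and from TBK1, which did not. RefSeq start sites differ from the GENCODE gene positions given below. The TBK1 stretch lies wholly inside the GENCODE gene, so that few bases before its GENCODE start were searched, and the other stretches reach into their genes. Bases in capitals match the ISRE letters, GAAA and GAAA separated by any 2 bases, or the same with a gap of 1 base, on either strand (build GRCh38.p14, 5′ to 3′ on the gene's strand).
DDX58 (chr9:32526307-32526426, minus strand, -230 to -111 from the start site): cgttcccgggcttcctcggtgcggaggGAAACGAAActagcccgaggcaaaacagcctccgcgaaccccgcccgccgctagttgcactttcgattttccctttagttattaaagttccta
IFIH1 (chr2:162318685-162318864, minus strand, -180 to -1 from the start site): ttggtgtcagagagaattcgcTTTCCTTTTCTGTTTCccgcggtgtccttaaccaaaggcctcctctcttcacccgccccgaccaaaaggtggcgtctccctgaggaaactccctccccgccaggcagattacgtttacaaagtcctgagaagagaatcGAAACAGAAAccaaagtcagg
EIF2AK2 (chr2:37156981-37157100, minus strand, -120 to -1 from the start site): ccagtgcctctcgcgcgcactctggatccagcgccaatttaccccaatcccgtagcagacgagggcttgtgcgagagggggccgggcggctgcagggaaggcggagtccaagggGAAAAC
DDX60 (chr4:168318753-168318902, minus strand, -150 to -1 from the start site): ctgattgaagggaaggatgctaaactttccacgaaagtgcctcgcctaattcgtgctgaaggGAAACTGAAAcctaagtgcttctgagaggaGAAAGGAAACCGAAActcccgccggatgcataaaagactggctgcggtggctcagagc
TBK1 (chr12:64452000-64452119, plus strand, -120 to -1 from the start site): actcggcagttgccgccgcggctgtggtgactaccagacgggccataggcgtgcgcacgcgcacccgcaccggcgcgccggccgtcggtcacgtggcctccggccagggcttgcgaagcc

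The ISRE letters were present in 3 of the 8 genes with a window. IFIH1 held 3 matches, 1 forward at -21 to -12 and an overlapping pair on the reverse strand at -159 to -150 and -153 to -144. EIF2AK2 held 1, at -6 to 4, so that its last bases lie past the start and are not shown. DDX60 held 2, at -88 to -79 and -53 to -44. The 1-base-gap form, added after these sequences had been seen, was present in DDX58 at -203 to -195 and in DDX60 at -58 to -50, where it overlaps the second ISRE match. Of 35116 promoter windows of the same length, counted per window, 3.57% held the ISRE letters and 3.12% the form with a gap of 1 base. Counted per gene, 438 of 10345 tested genes with a window held the ISRE letters and 370 the form with a gap of 1 base. The gamma-activated site (GAS) bound by STAT dimers, searched as TTC and GAA separated by any 3 bases, was present in DDX60 alone among the 8 (7.66% of all windows), and a kappa-B pattern, GGGA and TTCC separated by any 2 bases, in DDX58 and IFIH1 (1.61%). No search matched in the windows of TBK1, MAVS and IKBKE or in any of the 3 windows of ADAR, which has several annotated starts. A match describes letters only, and binding was not measured.

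**Figure D1:**
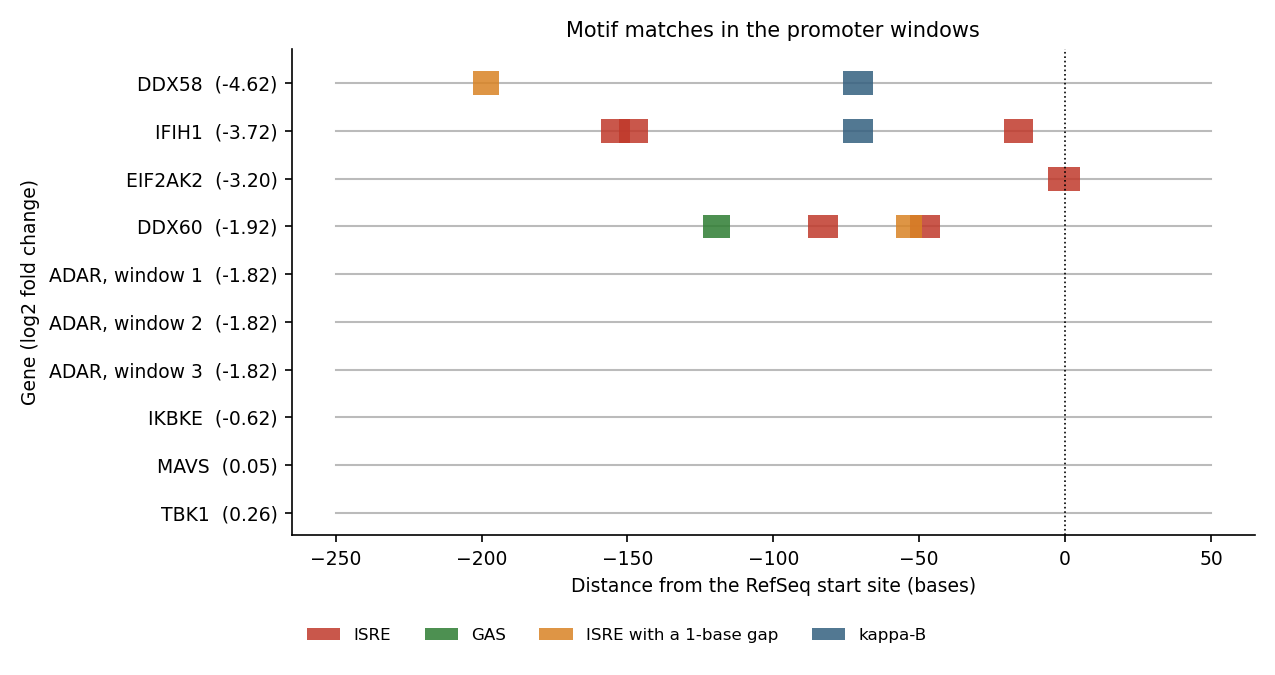
Position of each motif match (bars) from 250 bases before to 50 bases after the RefSeq start site (dotted line), 1 row per promoter window, with the gene's log2 fold change in brackets. The 3 genes with an ISRE match (IFIH1, EIF2AK2 and DDX60) have log2 fold changes of -3.72 to -1.92. DDX58, at -4.62, has no ISRE match but holds the 1-base-gap form, which was added after the sequences had been seen. Of all windows, 6.40% held either form. ADAR, at -1.82, has neither in its 3 windows, and DHX58, at -2.74, has no window.

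Most of the RNA sensing genes were lower with ruxolitinib. Of the 9 that were high enough to test, 7 fell, 1 rose (TBK1) and 1 did not pass the threshold (MAVS), by edgeR's quasi-likelihood test with Benjamini-Hochberg adjustment over 14051 genes at 0.05. Over all tested genes, 29.7% passed, 16.1% lower and 13.6% higher, a balance that upper-quartile scaling turned round (1957 lower and 2318 higher genes). The median log2 fold change of the 9 was -1.92, against -0.01 over all tested genes. A log2 fold change of -1.5 or below together with a pass of the threshold was reached by 6 of the 9, against 1.30% of all tested genes. The groups did not overlap for 8 of the 9, against 44.2% of all. Each log2 fold change is ruxolitinib over control, and levels are CPM over TMM-scaled totals.

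DDX58, the RIG-I gene (chromosome 9, 32455705 to 32526324, minus strand, GRCh38), fell furthest. It had 5.30, 5.52 and 6.87 CPM in the ruxolitinib libraries, against 148, 137 and 150 CPM in the control libraries. The groups lay far apart, with 332 counts in all under ruxolitinib and 9520 in control. The mean was 24.6-fold lower with ruxolitinib, 4.07% of the control mean (log2 fold change -4.62 ± 0.09, SE, adjusted p = 1.11e-12), which ranked 23 from the lowest of the tested genes. IFIH1, the MDA5 gene (chromosome 2, 162267079 to 162318703, minus strand), had 13.7, 15.1 and 12.0 CPM with ruxolitinib, against 184, 177 and 178 CPM in control. That is 13.2-fold lower, again with no overlap (log2 fold change -3.72 ± 0.07, adjusted p = 1.74e-12).

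DHX58 encodes LGP2, which lacks the caspase recruitment domains and tunes RIG-I and MDA5. The gene (chromosome 17, 42101404 to 42112733, minus strand) was the least abundant of these receptors in CPM, at 2.89, 2.41 and 2.63 CPM with ruxolitinib and 16.7, 19.1 and 17.2 CPM in control. It fell 6.68-fold (log2 fold change -2.74 ± 0.12, adjusted p = 8.05e-09), on 149 counts with ruxolitinib and 1171 in control, and its error was the widest of the genes that fell. The summed level of DDX58, IFIH1 and DHX58 was 21.9, 23.0 and 21.5 CPM in the ruxolitinib libraries, against 349, 333 and 345 CPM in control.

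Ratios between these receptors were taken within each library. For each DDX58 count there were 2.58, 2.73 and 1.74 IFIH1 counts with ruxolitinib, against 1.24, 1.29 and 1.19 in control. The log2 ratio of DHX58 to DDX58 was -1.14 ± 0.26 with ruxolitinib and -3.04 ± 0.17 in control (SD, n = 3 each), a difference of 1.89, and the IFIH1 to DDX58 difference was 0.89. The groups overlapped in neither ratio, and for both the exact permutation test, two-sided, gave p = 0.10, the lowest value 3 against 3 libraries can reach (0.12 after adjustment over the 6 ratios tested).

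**Figure D2:**
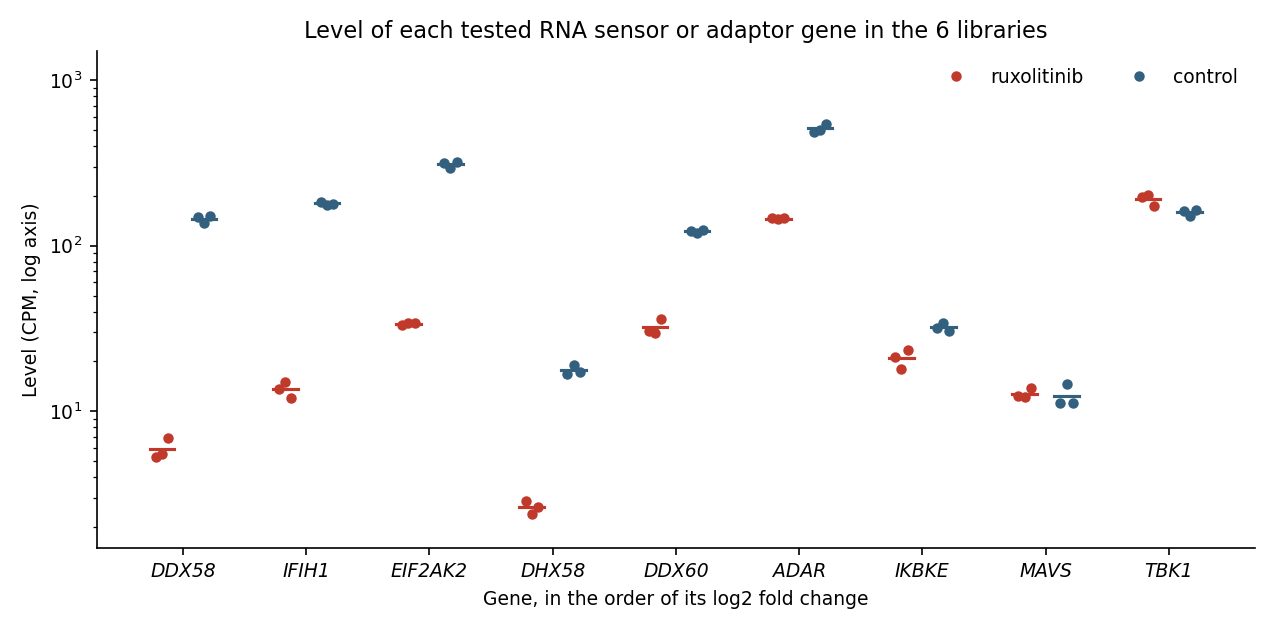
Level of the 9 tested genes in CPM (log axis), 1 point per library and a line at the group mean, with ruxolitinib left of control. DDX58 lies at 5.30 to 6.87 CPM with ruxolitinib and at 137 to 150 CPM in control, whereas MAVS overlaps between groups, at 12.2 to 13.8 and 11.2 to 14.6 CPM.

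DDX60 encodes a helicase reported to promote RIG-I signalling and viral RNA decay. The gene (chromosome 4, 168216293 to 168318807, minus strand) had 30.7, 29.8 and 36.0 CPM with ruxolitinib, against 122, 120 and 124 CPM in control. It fell 3.79-fold with no overlap (log2 fold change -1.92 ± 0.07, adjusted p = 8.16e-10). The log2 ratio of DDX60 to DDX58 was 2.45 ± 0.07 with ruxolitinib and -0.25 ± 0.05 in control (exact two-sided permutation p = 0.10). Its paralog DDX60L, whose reads may be shared with DDX60 in similar stretches, fell to 191 ± 7.23 CPM with ruxolitinib, against 410 ± 1.92 CPM in control (log2 fold change -1.10 ± 0.04, adjusted p = 3.35e-09).

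EIF2AK2 encodes PKR, a kinase that stops translation by phosphorylating eIF2 alpha once it binds double-stranded RNA. The gene (chromosome 2, 37099210 to 37157065, minus strand) had 33.3, 34.0 and 34.0 CPM with ruxolitinib, against 316, 295 and 321 CPM in control. The ruxolitinib libraries were nearly alike and all far under the control libraries, a 9.21-fold lower mean (log2 fold change -3.20 ± 0.05, adjusted p = 5.61e-13). ADAR encodes the enzyme that edits adenosine to inosine in double-stranded RNA and so keeps a cell's own RNA from being sensed. It was the most abundant of the 10 in control (chromosome 1, 154582057 to 154628013, minus strand), at 146, 144 and 146 CPM with ruxolitinib and 487, 502 and 545 CPM in control. It fell 3.52-fold (log2 fold change -1.82 ± 0.05, adjusted p = 7.72e-11). ADAR makes a long interferon-inducible form and a short constitutive form, and the gene count does not separate them. The log2 ratio of EIF2AK2 to ADAR was -2.10 ± 0.03 with ruxolitinib and -0.72 ± 0.08 in control, without overlap (exact two-sided permutation p = 0.10).

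ZBP1, a sensor of left-handed Z-form RNA that can start necroptosis, was at or under the detection limit (chromosome 20, 57603846 to 57620576, minus strand). It had 0 counts in each ruxolitinib library and 2, 1 and 0 counts in the control libraries. A count of 0 allows up to 0.156 to 0.160 CPM in the ruxolitinib libraries, taking 3 counts as the limit for counting error alone. It was too low to test, and a difference was not detectable at this depth.

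The log2 fold changes of the relay genes lay between -0.62 and 0.26. MAVS (chromosome 20, 3846799 to 3876123, plus strand) had 12.4, 12.2 and 13.8 CPM with ruxolitinib, against 11.2, 14.6 and 11.3 CPM in control. The groups overlapped, with control replicate 2 the highest of the 6 (log2 fold change 0.05 ± 0.12, approximate 95% interval -0.18 to 0.28, adjusted p = 0.799). TBK1 (chromosome 12, 64451880 to 64502108, plus strand) had 196, 201 and 173 CPM with ruxolitinib, against 161, 151 and 165 CPM in control. Each ruxolitinib library was above each control library, and TBK1 rose by 0.26 ± 0.06 on the log2 scale (adjusted p = 0.00725), a call that ended when the batch 1 pair was left out (adjusted p = 0.132). IKBKE (chromosome 1, 206470476 to 206496889, plus strand) had 21.3, 18.1 and 23.4 CPM with ruxolitinib, against 31.9, 34.1 and 30.4 CPM in control. It fell 1.54-fold without overlap (log2 fold change -0.62 ± 0.09, adjusted p = 3.01e-04).

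TBK1 and IKBKE, the kinases that phosphorylate IRF3, had opposite signs. The log2 ratio of IKBKE to TBK1 was -3.19 ± 0.29 with ruxolitinib and -2.31 ± 0.15 in control, a difference of -0.88 with no overlap (exact two-sided permutation p = 0.10). For MAVS to TBK1 the log2 ratio was -3.89 ± 0.21 with ruxolitinib and -3.69 ± 0.28 in control, with overlap (exact two-sided permutation p = 0.50).

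Each batch number in the labels is shared by 1 library of each group, and the differences within these pairs had the same sign in all 3 pairs for 8 of the 9 genes. For DDX58 they were -4.81, -4.63 and -4.45 on the log2 scale, and for EIF2AK2 -3.25, -3.12 and -3.24. MAVS was the exception, at 0.15, -0.26 and 0.29. TBK1 had 0.29, 0.41 and 0.07, and IKBKE -0.58, -0.92 and -0.38, so that batch 3 gave the smallest difference for both kinases.

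**Figure D3:**
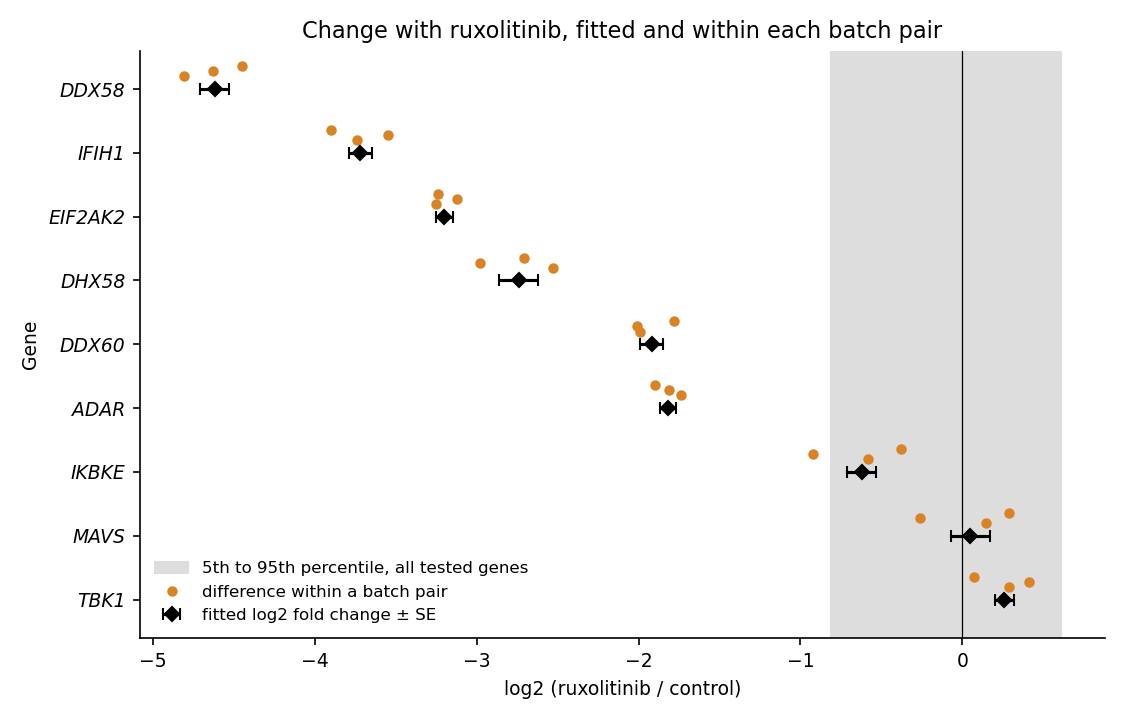
Change with ruxolitinib on the log2 scale for the 9 tested genes. Diamonds are fitted log2 fold changes with their SE, points the differences within each of the 3 batch pairs, and the grey band runs from the 5th to the 95th percentile of all tested genes (-0.81 to 0.61). From DDX58 (-4.62) to ADAR (-1.82) the genes lie left of the band, and IKBKE (-0.62), MAVS (0.05) and TBK1 (0.26) lie in it.

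Scaled to length, as CPM per kilobase (kb) of merged GENCODE 29 exons, the genes changed order between the groups. In control ADAR was highest at 52.7 ± 3.11 CPM per kb, followed by IFIH1 (35.2 ± 0.692), TBK1 (33.4 ± 1.46), DDX58 (33.3 ± 1.66) and EIF2AK2 (28.9 ± 1.28, SD, n = 3 each). The libraries of TBK1 and DDX58 overlapped in this order, at 31.8 to 34.6 and 31.4 to 34.5 CPM per kb. With ruxolitinib TBK1 was highest at 39.9 ± 3.15 CPM per kb, before ADAR, whose libraries lay at 14.8 to 15.1, and IKBKE at 5.52 ± 0.705. IKBKE and DDX60 (4.76 ± 0.496) overlapped there, then came EIF2AK2 (3.14 ± 0.0344), IFIH1 (2.66 ± 0.308), DDX58 (1.36 ± 0.195) and MAVS (1.09 ± 0.0726). DHX58 was at 0.688 ± 0.0620 CPM per kb with ruxolitinib and 4.60 ± 0.326 in control. MAVS thus had the lowest level of the 9 in control, at 1.05 ± 0.164 CPM per kb, and DHX58 the lowest with ruxolitinib. Of the summed counts of the 10 genes, TBK1 took 41.5% ± 2.56 with ruxolitinib and 10.7% ± 0.214 in control, and EIF2AK2 7.39% ± 0.193 and 20.9% ± 0.515. That sum was 457 ± 8.45 CPM with ruxolitinib and 1490 ± 47.2 CPM in control.

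**Figure D4:**
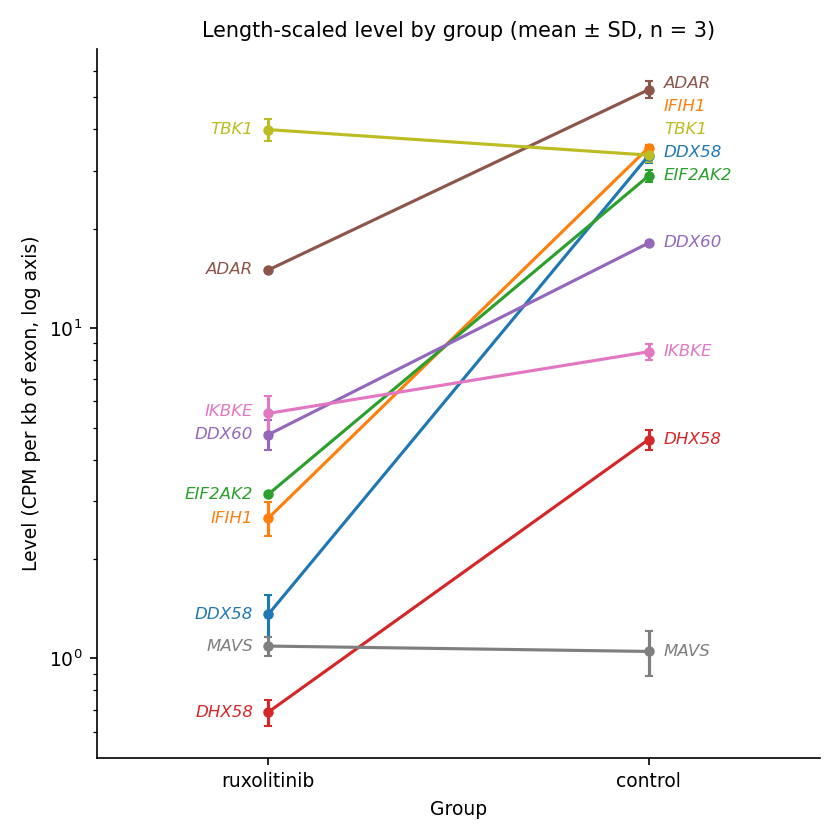
Length-scaled level (CPM per kb of exon, log axis) of the 9 tested genes in ruxolitinib and control libraries, as mean ± SD over 3 libraries. TBK1 is highest with ruxolitinib (39.9) and ADAR in control (52.7), and the lines of DDX58, IFIH1 and EIF2AK2 cross those of IKBKE and DDX60.

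The annotation places other genes over 3 of the 10. Without a stated strand setting their reads cannot be told apart where exons overlap, and the effect on the counts was not tested. An antisense gene shares 702 bases with TBK1 (14.7% of its exon bases) and had 5 counts with ruxolitinib and 7 in control, beside 10701 and 10448 for TBK1. C1orf147 shares 156 bases with IKBKE and had 10 and 33 counts, beside 1178 and 2122 for IKBKE. GPATCH11 shares 35 bases with EIF2AK2 (0.325%) and had 2275 and 1615 counts, beside 1902 and 20429 for EIF2AK2. A pseudogene that shares 401 bases with EIF2AK2 had 0 and 3 counts.

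Genes that act with the sensors were counted in lists. In 7 lists covering 87 tested genes, 27 were lower, 12 higher and 48 did not pass, with a median log2 fold change of -0.07. The higher share, 13.8%, was near that of all tested genes (13.6%), and the lower share was 31.0%, against 16.1% of all tested genes. With the batch as a block 20 were lower and 6 higher, while the calls over all genes dropped to 2915, against 4175 without it. The higher count was 7 when either ruxolitinib replicate 1 or ruxolitinib replicate 2 was left out, and 6 when control replicate 1 was. Leaving out the batch 1 pair gave 2 higher and 17 lower, with 1983 calls over all genes. The counts of each list below stand beside the same shares of all tested genes, 16.1% lower and 13.6% higher. No list was tested as a set, and counts in lists of 6 to 8 tested genes are too small to be read as a result of their own.

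Of 19 tested regulators of the RIG-I-like receptors, 10 fell and 3 rose, while 6 did not pass (median log2 fold change -0.20), and with the block 7 fell and 1 rose. DESeq2 called 6 of them lower, and leaving out the batch 1 pair gave 4 lower and 0 higher. When control replicate 1, ruxolitinib replicate 1 or ruxolitinib replicate 2 was left out, 1 was higher. TRIM25, a ubiquitin ligase that activates RIG-I, had 28.4, 26.1 and 27.7 CPM with ruxolitinib, against 142, 143 and 142 CPM in control. It fell by 2.38 ± 0.05 on the log2 scale (adjusted p = 5.97e-12). ZC3HAV1, the zinc-finger antiviral protein that binds CpG-rich RNA, fell by 0.77 ± 0.05, and CYLD, a deubiquitinase that restrains RIG-I, by 0.59 ± 0.06. The genes of this list that rose, named after their values were seen, were DHX36, an RNA helicase that unwinds G-quadruplexes (log2 fold change 0.27 ± 0.06), DDX3X (0.18 ± 0.05) and LRRC59 (0.14 ± 0.04), and with the block DDX3X (adjusted p = 0.0961) and LRRC59 (0.133) did not pass. Of 22 tested genes of the MAVS complex, 4 fell and 3 rose, while 15 did not pass (median -0.03). These counts were near the shares of all tested genes, 16.1% lower and 13.6% higher. With the block 3 fell and 2 rose, scaling by library totals alone gave 7 lower and 2 higher, and leaving out the batch 1 pair gave 3 lower and 0 higher. NLRC5, reported to restrain RIG-I signalling and known as the MHC class I transactivator, fell by 0.90 ± 0.15. The ubiquitin ligase gene SMURF1 fell by 0.41 ± 0.05 and TNFAIP3, the A20 brake, fell by 0.40 ± 0.05. TAX1BP1, an A20 partner, rose by 0.26 ± 0.05 (adjusted p = 0.00258), a call that ended at 0.0800 when the batch 1 pair was left out. TRAF3, the ligase between MAVS and TBK1, stood at -0.16 ± 0.06 (adjusted p = 0.0766), and scaling by library totals alone gave 0.0468.

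Downstream of MAVS, 7 of 15 tested genes fell and 0 rose, while 8 did not pass (median -0.19). When control replicate 2 or the batch 2 pair was left out, 2 were higher. STAT2 and IRF9 belong to the interferon-driven transcription complex. IRF9 fell by 2.29 ± 0.07 on the log2 scale and STAT2 fell by 1.14 ± 0.08. IRF7 had 1.84, 1.72 and 1.77 CPM with ruxolitinib, against 9.58, 14.9 and 8.38 CPM in control, where replicate 2 was again the highest. It fell by 2.63 ± 0.24 (adjusted p = 3.42e-05). IRF3, the factor present before stimulation, was at 44.4 ± 3.23 CPM with ruxolitinib and 39.8 ± 5.50 CPM in control (log2 fold change 0.15 ± 0.10, adjusted p = 0.283). Leaving out control replicate 2 gave IRF3 an adjusted p = 0.0135, and leaving out the batch 2 pair 1.31e-04. OPTN, the autophagy receptor that TBK1 phosphorylates, fell by 0.70 ± 0.06.

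Around PKR, 5 of 14 tested genes rose and 1 fell, while 8 did not pass (median 0.02), and with the block 3 rose and 0 fell. Leaving out the batch 1 pair gave 2 higher and 0 lower, leaving out the batch 2 pair 5 higher and 3 lower, and leaving out control replicate 1 gave 3 higher and 0 lower. EIF2AK3, the endoplasmic reticulum stress kinase PERK that shares PKR's substrate, rose by 0.67 ± 0.08 on the log2 scale, and DNAJC3, an inhibitor of both kinases, by 0.42 ± 0.05. PPP1R15A, which reverses eIF2 alpha phosphorylation, rose by 0.34 ± 0.07 (adjusted p = 0.00742), with adjusted p = 0.0975 when the batch 1 pair was left out and 0.107 when the batch 3 pair was. EIF2AK4, the amino acid starvation kinase GCN2 and the gene of this list that fell, was at 34.2 ± 1.59 CPM with ruxolitinib and 40.5 ± 3.49 CPM in control (log2 fold change -0.24 ± 0.07, adjusted p = 0.0275, and 0.0765 with the block). No gene of this list was lower under DESeq2 or upper-quartile scaling. None was lower on leaving out control replicate 3, ruxolitinib replicate 1, ruxolitinib replicate 3 or the batch 3 pair. EIF2S1, the substrate eIF2 alpha itself, stood at -0.07 ± 0.05 (adjusted p = 0.361), or 0.0483 when the batch 2 pair was left out.

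Among 7 tested genes of RNA editing and double-stranded RNA binding, 2 fell and 0 rose, while 5 did not pass (median -0.11), and 1 fell with the block. ZNFX1, a helicase that binds viral RNA on mitochondria, fell by 0.90 ± 0.06 on the log2 scale. STAU2, a double-stranded RNA-binding transport protein, fell by 0.24 ± 0.08 (adjusted p = 0.0468). That call ended under the block (0.120), DESeq2 (0.217), limma-voom (0.0512), median-ratio (0.0672) and upper-quartile scaling (0.0832), and without the low-count filter (0.0620). It also ended on leaving out replicate 1 or replicate 3 of either group (0.0946 to 0.197), the batch 1 pair (0.370) or the batch 3 pair (0.232). ADARB1, the second active editor, was at 51.9 ± 5.88 CPM with ruxolitinib and 52.7 ± 4.12 CPM in control (log2 fold change -0.03 ± 0.09, adjusted p = 0.860). On the ZBP1 side, 2 of 6 tested genes fell and 0 rose, while 4 did not pass (median -0.20). With the block 1 fell, whereas scaling by library totals alone gave 5 lower. MLKL, the executioner of necroptosis, fell by 0.83 ± 0.10. RIPK1, CASP8 and FADD are also in the MAVS list. RIPK1 fell by 0.16 ± 0.06 (adjusted p = 0.0436), a call that is counted in both lists. That call ended under the block (0.132), DESeq2 (0.245), median-ratio (0.0826) and upper-quartile scaling (0.103), and without the low-count filter (0.106). It also ended on leaving out any 1 of the 6 libraries (0.0613 to 0.215) or any batch pair (0.0614 to 0.231). RIPK3, ZBP1's kinase partner, was low, at 2.18 ± 0.295 and 3.15 ± 0.321 CPM in ruxolitinib and control libraries (log2 fold change -0.53 ± 0.19, adjusted p = 0.0522). Scaling by totals gave RIPK3 an adjusted p = 0.0430, and leaving out ruxolitinib replicate 3 gave 0.0481.

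The endosomal RNA sensors were low. TLR3, which binds double-stranded RNA, had 0 counts with ruxolitinib and 1 in control, and TLR7 had 21 and 12 counts, so neither was tested. TLR8, a sensor of single-stranded RNA, was at 4.09 ± 0.269 CPM with ruxolitinib and 4.84 ± 0.537 CPM in control (log2 fold change -0.25 ± 0.15, adjusted p = 0.232). Of 8 tested genes of this list, 2 fell and 1 rose, while 5 did not pass (median -0.24), and with the block 2 fell and 0 rose. The adaptor gene MYD88 fell by 1.19 ± 0.06 on the log2 scale, and TASL, the adaptor that recruits IRF5 to these receptors, fell by 1.06 ± 0.17. The kinase gene IRAK4 rose by 0.35 ± 0.11 (adjusted p = 0.0330). That call ended under the block (0.0749), DESeq2 (0.0820) and scaling by library totals alone (0.0519). It also ended on leaving out any single library other than control replicate 3 (0.0589 to 0.0962), the batch 1 pair (0.173) or the batch 2 pair (0.137).

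**Figure D5:**
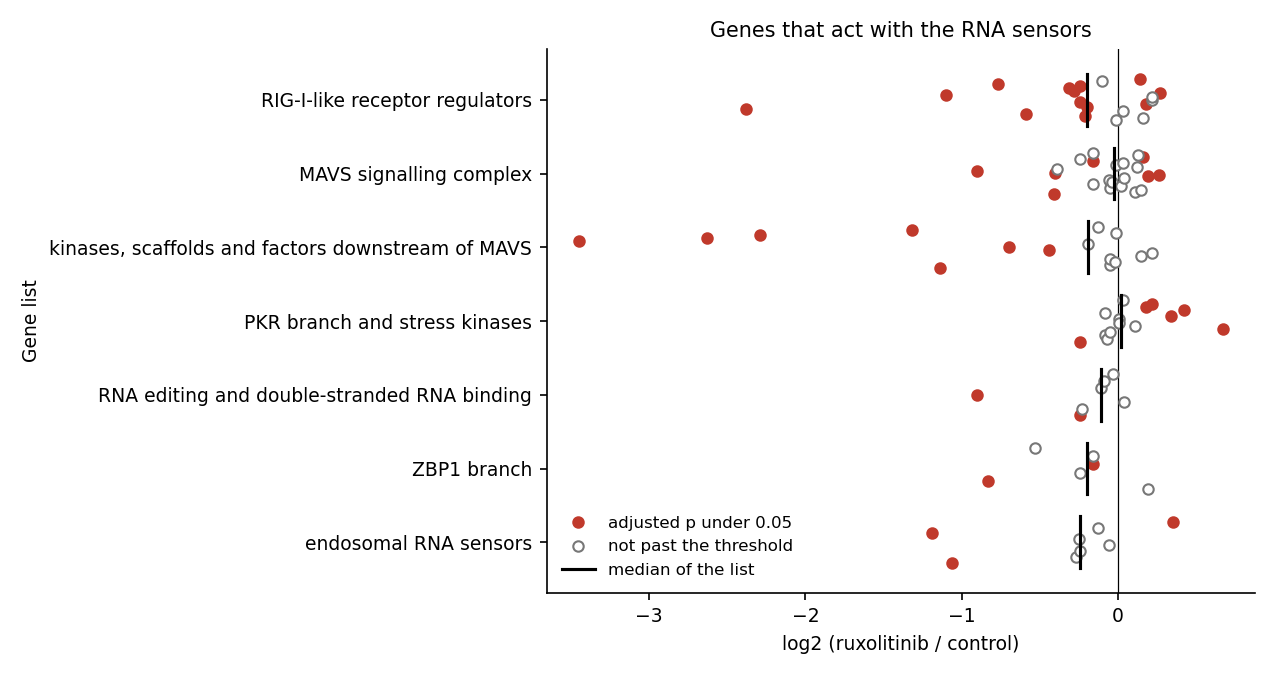
Log2 fold change of each tested gene in 7 lists of genes that act with the RNA sensors. Filled points passed the threshold, open points did not, and a line marks each list's median. IRF7 (-2.63), TRIM25 (-2.38) and IRF9 (-2.29) lie far to the left, and the PKR list has most of its filled points right of 0.

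The genes whose level over the 6 libraries lay closest to that of DDX58 were SAMD9L, XAF1, OAS3, RSAD2 and OASL, with root mean square distances of 0.138, 0.160, 0.163, 0.167 and 0.188 in centred log2 CPM. They were picked for this likeness among genes averaging 10 CPM or more, and their log2 fold changes ran from -4.89 (RSAD2) to -4.52 (OAS3). RSAD2 (viperin) was at 5.08 ± 0.127 CPM with ruxolitinib and 150 ± 6.46 CPM in control.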

How the data were processed

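Poly-A-selected RNA of 6 THP-1 libraries, 3 with ruxolitinib and 3 control, was compared. The authors deposited whole-number counts per gene on genome build hg38, per the submitters' processing notes. Aligner, counting program, annotation release, strand setting and the handling of multiply mapped reads were not stated there.

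Counts were tested with edgeR 4.0.16 in R 4.3.3 (glmQLFit with robust estimation, glmQLFTest) with TMM factors. Genes were kept by filterByExpr (minimum count 10, minimum total 15). P-values were adjusted over all 14051 genes kept, with a threshold of 0.05. Standard errors were derived from the fold change and its F statistic. The 95% interval of MAVS was taken from its standard error by a normal approximation, which can be too narrow with 3 libraries per group. An adjusted p of a gene is from edgeR where no other tool is named. The procedure was run on simulated counts in which few genes changed, as many up as down. In these data 29.7% of tested genes passed, so that run does not bear on the scaling here. Ratios of counts (0.5 added) were compared by exact permutation (scipy 1.17.1). Gene positions and exon lengths came from GENCODE 29 (GRCh38), a release that may differ from the authors' annotation, so levels per kb are approximate. Promoter windows came from RefSeq (GRCh38.p14).

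The 10 genes, the lists and the tests were chosen with earlier results of these data known. Named genes of each list were up to 4 with the smallest adjusted p among those past the threshold, plus TRIM25, TRAF3, IRF3, IRF7, EIF2S1, RIPK3, ADARB1 and TLR8. TLR3, TLR7, EIF2AK4 and the marker genes were named after their values were seen. A few genes that the rule names are not reported here. Whether the 3 libraries of a group were separate cultures is not in the labels, and p-values rest on a spread between libraries that may be technical. The batch numbers in the labels pair 1 library of each group. Correlations of same-batch deviations over genes were -0.0173, -0.194 and -0.105, and the pairing is thus taken from the labels and not from the data. Alternatives were the batch as a block, 3 other scalings, 2 other filters, DESeq2 1.42.0, limma-voom (limma 3.58.1), and omission of single libraries and of batch pairs.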

Additional observations from a re-analysis of the deposited data

How the results depend on the processing

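The 7 genes that fell kept their direction and stayed past the threshold under all 17 alternatives. DDX58 ranged from -4.74 to -4.53 on the log2 scale, IFIH1 from -3.81 to -3.64, EIF2AK2 from -3.24 to -3.16, DHX58 from -2.84 to -2.62, DDX60 from -2.01 to -1.87, ADAR from -1.86 to -1.75 and IKBKE from -0.75 to -0.48 (highest adjusted p = 0.0106). TBK1 ranged from 0.18 to 0.35 and passed under each alternative except without both libraries of batch 1, where its log2 fold change was 0.24 (adjusted p = 0.132). MAVS passed under none, and its log2 fold change ran from -0.01 to 0.19 without single libraries and from -0.07 to 0.22 without batch pairs. With the batch as a replicate block, TBK1 had an adjusted p = 0.0377 and IKBKE 0.00380, no call of the 9 genes changed, and 6 genes of the 7 lists were higher. Within batch 3 the MAVS to TBK1 difference was 0.23. When libraries were left out, 1983 to 5034 genes passed in all, 840 to 2553 higher and 1143 to 2481 lower, the lowest without both libraries of batch 1, and 2 to 13 genes of the lists were higher (6 to 12 without single libraries) and 17 to 30 lower. The highest were without the batch 2 pair, which also leaves 2 libraries a group, and the cause of these shifts was not tested. Upper-quartile scaling gave 2318 higher and 1957 lower, and library totals alone 1578 higher and 2621 lower, against 1908 and 2267 with TMM, so the direction that holds more calls depends on the scaling. Scaling moved the median of all genes to between -0.05 and 0.02. Depth limits ZBP1, TLR3 and TLR7, which were too low to test.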

Other observations

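Over all tested genes, and not the RNA sensing genes alone, a promoter window was matched by symbol for 10345 of 14051. The ISRE letters, GAAA and GAAA separated by any 2 bases, were present for 438 of them, and 156 of these (35.6%) were lower with ruxolitinib and 55 (12.6%) higher. Of the 9907 without a match, 15.8% were lower and 14.6% higher. For the form with a gap of 1 base, 28.6% of 370 genes with a match were lower, against 16.2% of those without. Some genes hold both forms. With either form 31.3% of 757 genes were lower, against 15.5% of the 9588 with neither. For the GAS letters 21.6% of 916 genes with a match were lower, against 16.2% without, and for the kappa-B letters 22.4% of 223, against 16.5%. These shares are descriptions with no test, and base composition was not adjusted for.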
